A study of Mus musculus with 9 samples.

Results

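The 10 genes described here carry the response of mouse embryonic stem cells (mESC) to leukemia inhibitory factor (LIF): the receptor genes Lifr and Il6st, the kinase gene Jak1, the transcription factor gene Stat3, the feedback inhibitor genes Socs1, Socs2 and Socs3, and Pim1, Pim3 and Bcl3, which are known to be induced through STAT3. They were chosen by gene name as members of this pathway, with earlier results of these data known, and all 10 were found among the 29069 genes of the RNA-Seq table. A mean normalized read count above 5 was reached by 9 of them, together with 18156 genes in all, and these were tested. Socs1 was below that minimum.

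Total RNA was sequenced from mESC of the D3 line, an established mouse line grown without feeder cells, after 24 h in 1 of 3 media, with 3 samples in each and a separate dish for each sample. Ground-state medium (GS) is a serum-free N2B27 medium with the MEK inhibitor PD0325901 (1 μM), the GSK-3 inhibitor CHIR99021 (3 μM) and LIF (20 ng/mL). Differentiation medium (DM) was DMEM with 10% fetal bovine serum, with neither inhibitor nor LIF listed. The third medium, NO, was DM with 250 μM of DETA/NO, a donor from which nitric oxide is set free. No genetic change is given for any group, and all samples came from a single line. Between GS and DM the LIF, both inhibitors, the serum and the basal medium changed at once, so that their effects cannot be told apart, whereas NO and DM differed by DETA/NO alone.

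LIF binds the LIF receptor, encoded by Lifr, which pairs with the shared chain gp130, encoded by Il6st. JAK1, bound to the receptor, then phosphorylates STAT3, which enters the nucleus and activates genes that help to keep mESC undifferentiated. SOCS3, itself a product of a STAT3 target gene, binds gp130 and JAK and shuts the signal down, so its RNA is widely used as a readout of recent STAT3 activity. Phosphorylation was not measured in these libraries, which report RNA alone. In bulk RNA, fewer cells of a type and less RNA per cell cannot be told apart.

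The promoter of Socs3 is shown because it holds a STAT-type palindrome. The letters searched were TTCNNNGAA, which read the same on both strands, in windows from 250 bases before to 50 bases after the RefSeq start sites (assembly GRCm38.p6). A window was at hand for 9 of the 10 genes, Socs2 having none, and Socs3 was the only one with a match. Of all 32851 windows, 2726 (8.30%) held at least 1 match. The 250 bases before the Socs3 start, chr11:117969367-117969616 on the minus strand, are given 5′ to 3′ with the matching bases in capitals.
Socs3: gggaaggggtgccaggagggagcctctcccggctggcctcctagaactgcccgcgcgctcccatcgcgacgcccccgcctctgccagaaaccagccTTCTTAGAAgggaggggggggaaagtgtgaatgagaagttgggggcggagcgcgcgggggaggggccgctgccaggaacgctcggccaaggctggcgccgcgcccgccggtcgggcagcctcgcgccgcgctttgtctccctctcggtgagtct
The first base of the match lay at -154 from the RefSeq start. That start lay 180 bases upstream of the nearest start of a coding transcript in the GENCODE annotation. The window, which ends 50 bases after the RefSeq start, therefore does not contain the GENCODE start. The bases directly before the GENCODE start were not searched. A match describes letters and is not a measured binding site, and its absence from the other windows says only that these letters were not there.

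By the spacing of the low values, the libraries held an estimated 14308617 to 27061091 assigned reads, and the estimated reads per sample behind each tested member ranged from 53 (Bcl3) to 4897 (Pim3). The library NO replicate 2 stood apart. On the first principal component of all tested genes the GS and DM samples lay between -49.1 and -26.0, whereas NO replicates 1, 2 and 3 lay at 25.9, 131.2 and 67.1. The summed normalized count of 6 embryonic stem cell markers was 60517 to 63716 in GS and 60314 to 68423 in DM. In NO it was 35758 to 60848, lowest in replicate 2. The sum joins markers that moved differently. Nanog was lower in DM (7596 to 8190) than in GS (12184 to 15465). Utf1 was higher in DM (3184 to 5464) than in GS (609 to 1164), as was Zfp42 (19569 to 22594 against 16236 to 18573). Pou5f1, Sox2 and Esrrb overlapped between GS and DM. Markers of fibroblasts, 5 of 7 of which passed the minimum, summed to 136 to 157 in GS, 261 to 276 in DM and 241 to 466 in NO, with Lum and Dcn at 6 or below in every sample. The higher sum in DM came from Thy1, since the other 6 markers summed to 77 to 98 in GS, 51 to 93 in DM and 83 to 290 in NO. For hematopoietic markers, 4 of 5 of which passed, the sums were 248 to 307, 397 to 513 and 559 to 860, with Ptprc at 2 or below. Cd68 was the largest part, at 191 to 246 in GS, 280 to 395 in DM and 449 to 676 in NO. Itgam was also higher in DM and NO than in GS. Spi1 was lower in DM (6 to 8) than in GS (16 to 19) and highest in NO (29 to 65). The part of these markers in the results was not tested. Results on NO are given with and without NO replicate 2 where it mattered.

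After release from GS into DM, Socs3 RNA fell to less than 50% of its ground-state level. Pim1 fell as well, a call that was lost in 5 of 19 alternative fits, whereas the RNA of the receptor chains and of Stat3 did not pass the test. In NO, Socs3 and Pim1 were lower than in GS too, and Il6st and Bcl3 fell at least 2-fold relative to GS. For Il6st the fall was under 2-fold with scaling to equal totals (-0.90 on the log2 scale), with quantile normalization (-0.94) and without NO replicate 2 (-0.81). Il6st and Socs2 were lower in NO than in DM by less than 2-fold. These calls were lost in 13 of 19 alternative fits for Il6st and in 6 of 19 for Socs2. In the fit of all 9 samples, no member passed the test as higher in any of the 3 comparisons. With only the 6 samples of DM and GS fitted, Pim3 (0.60, adjusted p = 0.0443, limma) and Socs2 (0.42, adjusted p = 0.0492) passed as higher in DM. Il6st (-0.41, adjusted p = 0.0345) then passed as lower in DM.

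Calls were made with limma where the adjusted p-value (Benjamini-Hochberg) was under 0.05 and the log2 fold change was 1 or more in either direction. Between DM and GS, 1 of the 9 tested members passed both thresholds (Socs3), where 4.20% of all tested genes did, and 2 passed the adjusted p-value alone, where 6.69% did. Between NO and GS, 2 passed both (Il6st and Bcl3) against 11.7% of all genes, and 4 passed the adjusted p-value alone against 20.0%. Between NO and DM, none passed both against 8.55%, and 2 passed the adjusted p-value alone against 14.2%. In an F test over the 3 media, 5 of the 9 passed (Socs3, Il6st, Pim1, Bcl3 and Socs2), compared with 23.3% of all genes. All members that passed an adjusted p-value in any pair were lower in the medium named first.

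Sample values of members often separated by medium even where no test was passed. The 3 values of DM all lay on a single side of the 3 of GS for 6 of the 9 tested members (2 higher and 4 lower), a pattern seen in 29.6% of all genes. For NO and GS this was 5 of 9, all lower, against 39.1% of all genes, and for NO and DM it was 5 of 9 (1 higher and 4 lower) against 33.4%. The median log2 fold change of the 9 members was -0.27 for DM and GS, -0.43 for NO and GS and -0.35 for NO and DM, while that of all genes was -0.0007, -0.02 and 0.001. The comparisons of DM with GS and of NO with GS used the same GS samples and are therefore not independent.

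**Figure D1:**
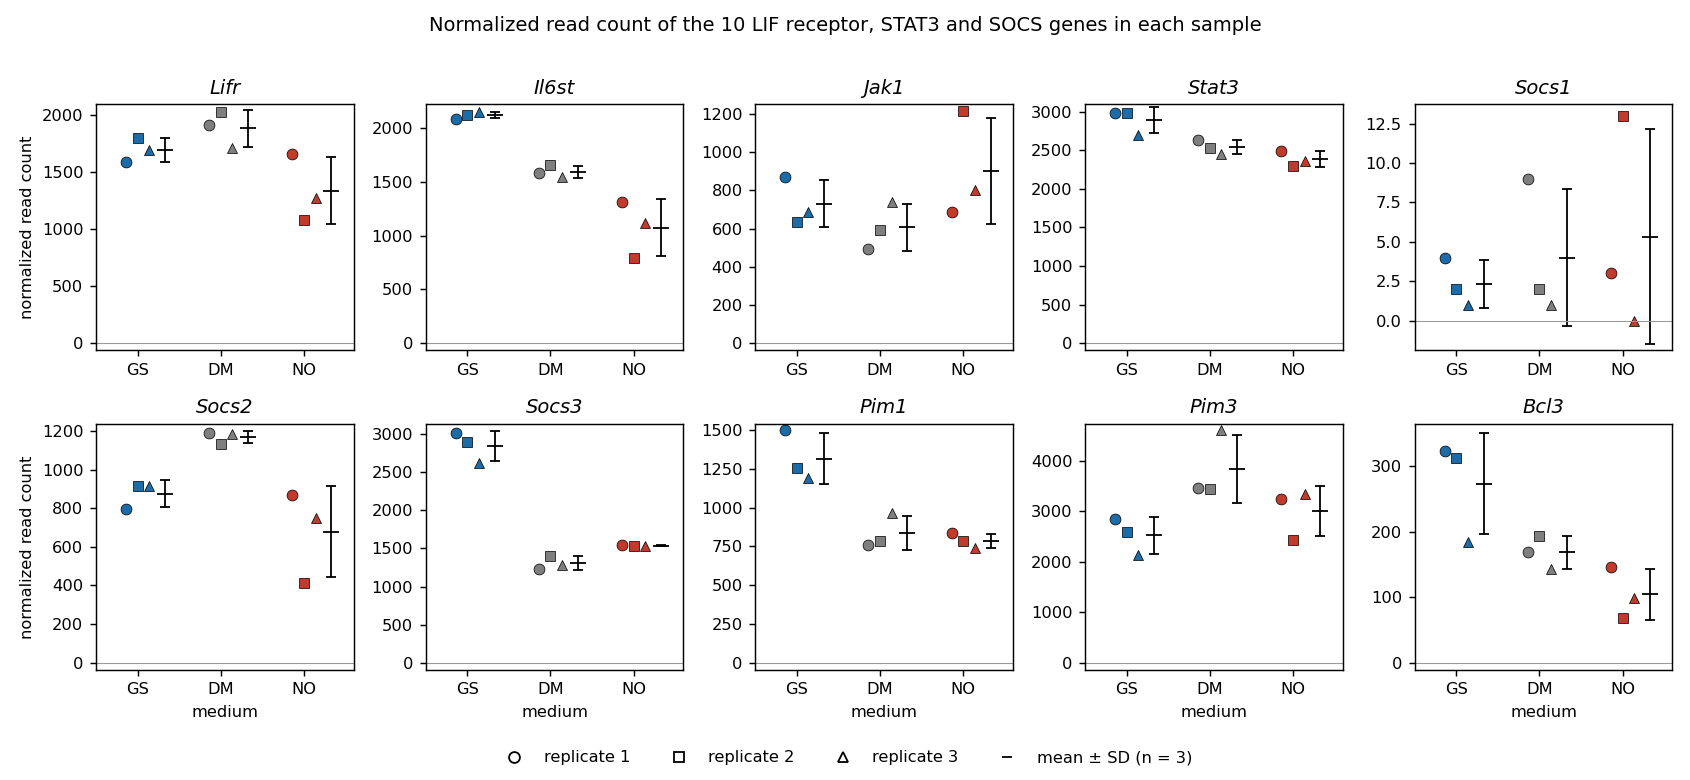
Normalized read count of each of the 10 genes in the 9 samples, 1 panel per gene, with points for samples and bars for the mean and SD of the 3 samples of GS, DM and NO. The 3 GS points of Socs3, from 2621 to 3012, lie above all DM and NO points, from 1225 to 1540.

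The receptor gene Lifr (ENSMUSG00000054263, chr15:7090614-7197489, plus strand) encodes the chain that binds LIF. Its normalized counts were 1587, 1797 and 1691 in GS, 1916, 2025 and 1709 in DM, and 1658, 1082 and 1270 in NO. DM and GS overlapped, whereas all NO values lay below the DM values. The log2 fold change was 0.15 ± 0.16 (SE) for DM and GS (adjusted p = 0.656, limma), -0.36 ± 0.16 for NO and GS (adjusted p = 0.134) and -0.51 ± 0.16 for NO and DM (adjusted p = 0.0527). None passed. Lifr depended on NO replicate 1, the NO sample nearest to the other media, since without it the log2 fold change was -0.53 against GS (adjusted p = 0.0204) and -0.68 against DM (adjusted p = 0.00674). Without NO replicate 2, the values were -0.22 (adjusted p = 0.367) and -0.37 (adjusted p = 0.159).

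Il6st (ENSMUSG00000021756, chr13:112464070-112510086, plus strand), the gene of the signaling chain gp130 that all cytokines of the IL-6 family share, gave 2088, 2124 and 2150 in GS, 1578, 1655 and 1544 in DM, and 1309, 790 and 1121 in NO. The media were fully ordered, as every DM value lay below every GS value and every NO value below every DM value. The mean was 2121 ± 31.1 (SD, n = 3) in GS, 1592 ± 56.9 in DM and 1073 ± 263 in NO. Il6st fell between GS and NO (log2 fold change -1.01 ± 0.17, adjusted p = 0.00223, limma) and between DM and NO (-0.60 ± 0.17, adjusted p = 0.0363), while DM and GS differed by -0.41 ± 0.17 (adjusted p = 0.19). Without NO replicate 2 the fold change of NO and GS was -0.81 (adjusted p = 0.00162), that is under 2-fold, and DM and GS passed the adjusted p-value (0.0333). The call between NO and DM was lost when any single sample other than NO replicate 1 was left out (adjusted p = 0.055 to 0.102). Without NO replicate 2 the fold change was -0.39 (adjusted p = 0.0785). The call was also lost with no minimum mean (adjusted p = 0.0529), quantile normalization (0.0578) or scaling to equal totals (0.0666). So it was without a variance trend (0.0848) or with only the 6 samples compared (0.0953).

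Neither the kinase nor the transcription factor of the pathway passed the test in any of the 3 comparisons. Jak1 (ENSMUSG00000028530, chr4:101152367-101265282, minus strand), which encodes the main kinase of gp130, had 869, 635 and 688 in GS, 492, 591 and 739 in DM, and 686, 1214 and 803 in NO. Its values overlapped between all media, with NO replicate 2 the highest of the 9. The log2 fold changes were -0.27 ± 0.22 (DM and GS, adjusted p = 0.555), 0.27 ± 0.22 (NO and GS, adjusted p = 0.421) and 0.55 ± 0.22 (NO and DM, adjusted p = 0.123), all by limma. Jak1 passed between NO and DM only when NO replicate 1 was left out (0.72, adjusted p = 0.0399), and without NO replicate 2 the value was 0.31 (adjusted p = 0.388).

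Stat3 (ENSMUSG00000004040, chr11:100885098-100939540, minus strand), the factor that LIF activates, had 2985, 2988 and 2704 in GS, 2634, 2525 and 2455 in DM, and 2497, 2293 and 2356 in NO. Both DM and NO lay wholly below GS, but by little, with means of 2892 ± 163 (SD, n = 3), 2538 ± 90.2 and 2382 ± 104. The differences did not pass the limma test, at -0.19 ± 0.11 for DM and GS (adjusted p = 0.403), -0.28 ± 0.11 for NO and GS (adjusted p = 0.107) and -0.09 ± 0.11 for NO and DM (adjusted p = 0.625). No alternative changed this for Stat3 in any of the 3 comparisons. Of its exon bases, 72 overlap Stat5a on the other strand.

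Socs3 (ENSMUSG00000053113, chr11:117966079-117970047, minus strand), the feedback inhibitor whose promoter is given above, showed the clearest difference between GS and DM among the members. Its normalized counts were 3012, 2899 and 2621 in GS, 1225, 1404 and 1289 in DM, and 1540, 1535 and 1532 in NO. All DM values lay below all NO values, which in turn lay below all GS values, and the 3 NO values differed by 8 counts at most. Means were 2844 ± 201 (SD, n = 3) in GS, 1306 ± 90.7 in DM and 1536 ± 4.0 in NO. On the log2 scale, Socs3 fell by 1.12 ± 0.12 in DM (adjusted p = 0.000288, limma) and by 0.89 ± 0.12 in NO (adjusted p = 0.000944), both relative to GS. NO and DM differed by 0.24 ± 0.12 (adjusted p = 0.199). The fall in DM passed both thresholds in all 19 alternative fits, each without 1 sample or with another filter, scaling or variance model, and the fall in NO passed the adjusted p-value in all 19. Socs3 was also unaffected by NO replicate 2, its value against GS without this sample being -0.89.

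Socs2 (ENSMUSG00000020027, chr10:95385362-95417180, minus strand) belongs to the same family and is best known as an inhibitor of growth hormone signaling through STAT5. It had 795, 914 and 917 in GS, 1188, 1134 and 1183 in DM, and 871, 415 and 749 in NO. Thus Socs2 and Socs3 were ordered differently, since the 3 DM values of Socs2 lay above all others. Socs2 fell in NO relative to DM (-0.85 ± 0.23, adjusted p = 0.0299, limma). DM and GS differed by 0.42 ± 0.23 (adjusted p = 0.337) and NO and GS by -0.43 ± 0.23 (adjusted p = 0.199). The call between NO and DM was lost without any single DM sample (adjusted p = 0.0717 to 0.0837) or without NO replicate 3 (adjusted p = 0.0524). It was also lost without a variance trend (adjusted p = 0.0768) or with only the 6 samples compared (adjusted p = 0.0796). Without NO replicate 2 it was kept at a smaller -0.53 (adjusted p = 0.0355), and DM and GS then passed as well (adjusted p = 0.0456). Without NO replicate 1 the value for NO and DM was -1.07 (adjusted p = 0.00491) and NO and GS passed too (-0.65, adjusted p = 0.0437).

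Socs1 (ENSMUSG00000038037, chr16:10782240-10785536, minus strand), an inhibitor of JAK kinases that interferons also induce, was scarcely detected. Its normalized counts were 4, 2 and 1 in GS, 9, 2 and 1 in DM, and 3, 13 and 0 in NO, which stand for an estimated 36 reads in all 9 libraries. With 0 to 11 reads per library, a difference between media was not detectable at this depth, and the gene was not tested.

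The PIM kinases promote survival and growth, and Pim1 and Pim3 are both known STAT3 targets in mESC, yet their RNA took different courses. Pim1 (ENSMUSG00000024014, chr17:29490753-29496112, plus strand) had 1503, 1258 and 1192 in GS, 760, 784 and 965 in DM, and 835, 783 and 743 in NO. The GS values lay above all others, and DM and NO overlapped. Pim1 fell in DM (-0.66 ± 0.15, adjusted p = 0.0195, limma) and in NO (-0.74 ± 0.15, adjusted p = 0.00537) relative to GS, while NO and DM differed by -0.08 ± 0.15 (adjusted p = 0.744). The fall in NO passed in all 19 alternative fits. That in DM was lost without GS replicate 1 (adjusted p = 0.0897), GS replicate 2 (adjusted p = 0.0646), DM replicate 1 (adjusted p = 0.085) or DM replicate 2 (adjusted p = 0.0821). An antisense gene, Gm26885, shares 488 exon bases with Pim1, and had 16 to 29 normalized counts.

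Pim3 (ENSMUSG00000035828, chr15:88862186-88865726, plus strand) had 2854, 2578 and 2130 in GS, 3467, 3433 and 4606 in DM, and 3236, 2439 and 3338 in NO. The DM values lay above all GS and NO values. The limma test was not passed by DM and GS (0.60 ± 0.18, adjusted p = 0.0661), NO and GS (0.25 ± 0.18, adjusted p = 0.339) or NO and DM (-0.35 ± 0.18, adjusted p = 0.194). Without NO replicate 2, DM and GS passed with the same fold change (adjusted p = 0.0245). Pim2, the third kinase of the family, did not pass in any comparison (adjusted p = 0.122, 0.885 and 0.0569, in the same order).

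Bcl3 (ENSMUSG00000053175, chr7:19808462-19822770, minus strand) encodes an atypical IκB protein that binds NF-κB p50 and p52 and has been linked to the pluripotency of mESC downstream of LIF. It had 323, 313 and 185 in GS, 169, 193 and 143 in DM, and 146, 68 and 99 in NO. GS replicate 3 was low and overlapped DM, whereas all NO values lay below all GS values. Bcl3 fell in NO relative to GS (-1.41 ± 0.30, adjusted p = 0.00747, limma), from a mean of 274 ± 77.0 (SD, n = 3) to 104 ± 39.3. This call passed both thresholds in all 19 alternative fits, with a value of -1.14 without NO replicate 2 (adjusted p = 0.0179). DM and GS differed by -0.66 ± 0.30 (adjusted p = 0.239) and NO and DM by -0.74 ± 0.30 (adjusted p = 0.112), the latter passing only without NO replicate 1 (-1.02, adjusted p = 0.0237). Bcl3 shares 161 exon bases with the antisense gene Gm16175, which had 0 to 4 counts.

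**Figure D2:**
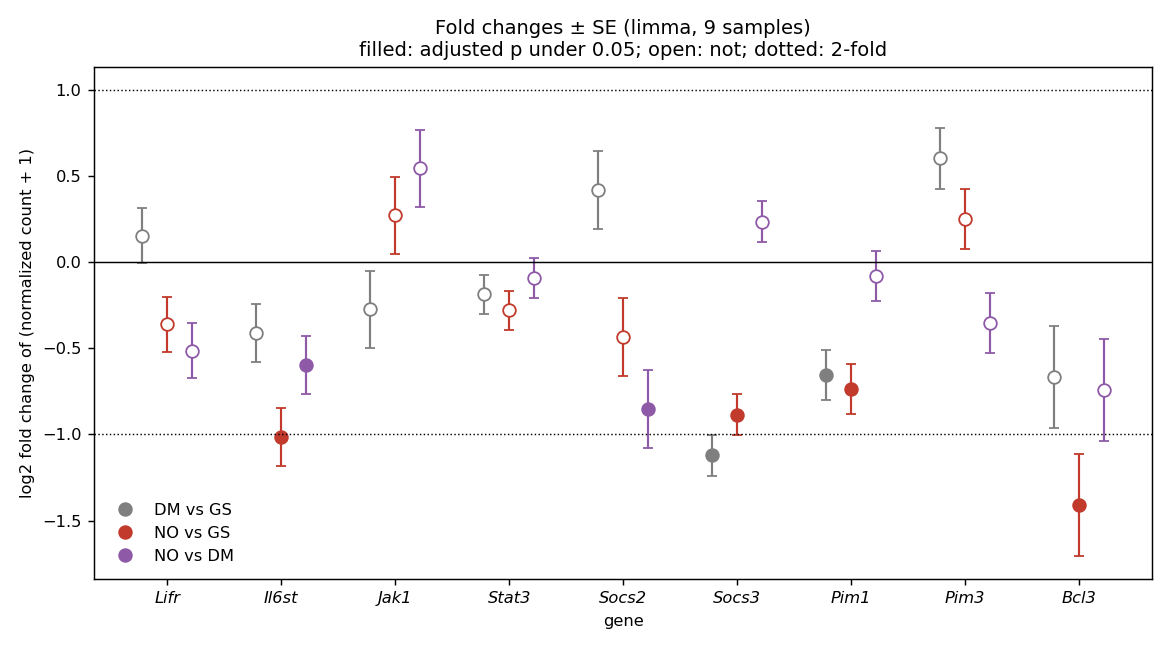
Log2 fold change (vertical axis) of the 9 tested genes in the 3 comparisons, with bars for the standard error, filled markers for an adjusted p-value under 0.05 and dotted lines at 2-fold. Socs3 and Pim1 lie below 0 with filled markers in both comparisons with GS, and Il6st lies below 0 in all 3, with -0.41 between DM and GS not passing.

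To compare levels between genes, counts were divided by the exon length in kb. This length joined the exons of all annotated transcripts of a gene, whether or not they are used in these cells. The order of different genes therefore depends on it and is a description. In GS the mean counts per kb ranged from 1039 for Pim3 and 984 for Socs3, whose samples overlapped, through 392 for Pim1, 304 for Stat3, 191 for Il6st and 157 for Lifr, to 111 for Bcl3, 101 for Jak1 and 91.8 for Socs2, with overlap between neighbors among the last 3. Socs1 stood at 0.80. Pim3 remained first in DM (1580 per kb) and NO (1238 per kb), and Socs3 remained next, though at 452 and 531 per kb its samples no longer overlapped those of Pim3. Stat3 and Pim1, which were separate in GS, overlapped in DM (266 and 249 per kb) and in NO (250.0 and 234 per kb). Bcl3 was the lowest of the tested members in DM (68.0 per kb, overlapping Jak1) and in NO (42.2 per kb, overlapping Socs2).

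**Figure D3:**
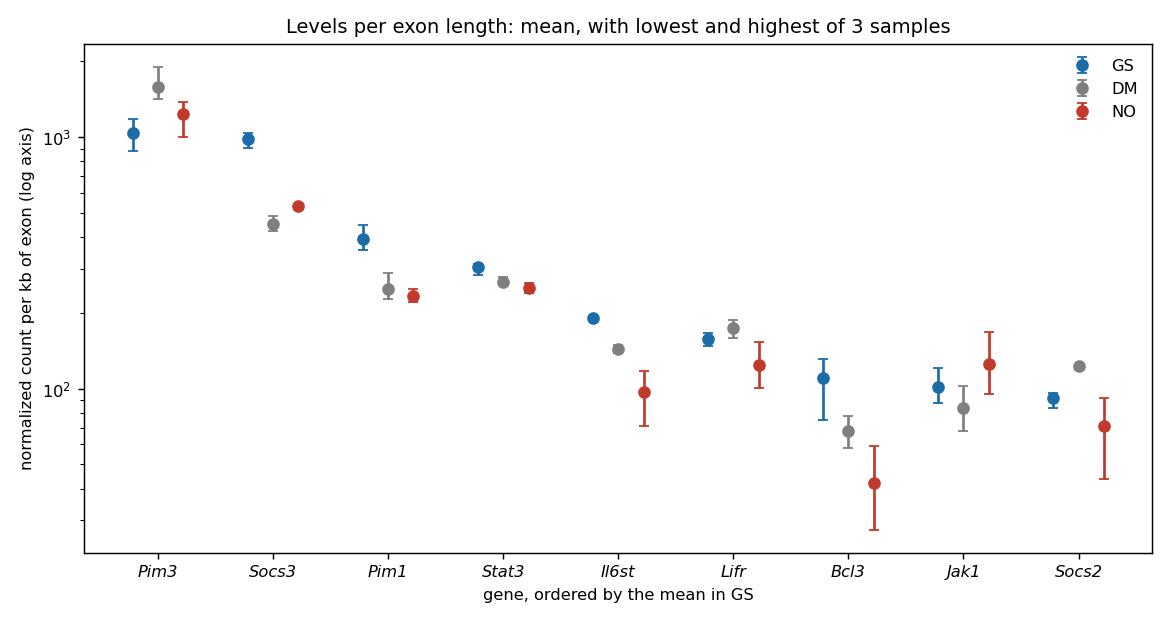
Normalized counts per kb of exon of the 9 tested genes in GS, DM and NO on a logarithmic axis, with points for the mean and bars from the lowest to the highest of 3 samples. Socs3 lies beside Pim3 in GS (984 and 1039 per kb) and below it in DM (452 and 1580 per kb).

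Ratios between related genes within a sample do not depend on the scaling of the library. The pairs were chosen after their values had been seen, and the ratios are a description without a test. The ratio of Pim3 to Pim1 per kb was 2.48 to 2.84 in GS, 6.07 to 6.61 in DM and 4.31 to 6.22 in NO, so that GS was separate from both other media. Per kb, Socs3 exceeded Socs2 by 9.42 to 12.5 times in GS and by 3.40 to 4.08 times in DM. The size of this ratio rests on the exon lengths used, 2891 bases for Socs3 and 9531 for Socs2. Its change between media does not. In NO this ratio was 5.83, 12.2 and 6.74 in replicates 1, 2 and 3, the high value in replicate 2 going with the low Socs2 count of 415 in this sample. Lifr to Il6st was 0.783 to 0.871 in GS, 1.14 to 1.26 in DM and 1.17 to 1.41 in NO. Counts per kb of Lifr were therefore below those of Il6st in every GS sample and above them in every DM and NO sample. On which side of 1 the ratio lies depends on the exon lengths used, 10776 bases for Lifr and 11099 for Il6st. The change of the ratio between media does not.

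**Figure D4:**
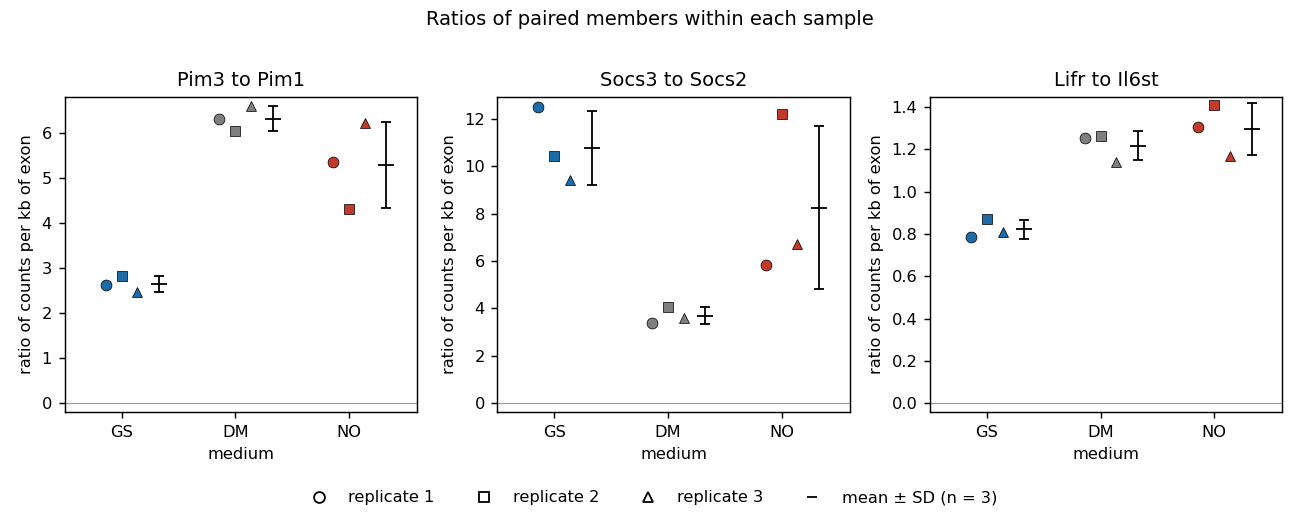
Ratio of counts per kb within each of the 9 samples for Pim3 to Pim1, Socs3 to Socs2 and Lifr to Il6st, with points for samples and bars for the mean and SD of 3 samples. GS is separate from DM in all 3 panels, and NO replicate 2 (12.2) lies within the GS range for Socs3 to Socs2.

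The wider pathway was represented by 64 further genes, of which 57 were tested: ligands and receptors of the gp130 family, other JAK kinases, 5 further STAT factors, SOCS and PIAS proteins and phosphatases, reported LIF or STAT3 targets, Pim2, NF-κB and IκB genes, and interferon targets. Both thresholds were passed by 4 of them between DM and GS (2 higher and 2 lower) and by 5 between NO and GS (3 higher and 2 lower). Between NO and DM, 4 passed both (3 higher and 1 lower), counting Gbp3, which reached the minimum mean through the NO samples alone. Over all tested genes the shares were 4.20%, 11.7% and 8.55%, so these counts of 57 stay near the background in each comparison. None of the 3 other JAK kinases passed, and of the 13 other SOCS, PIAS and phosphatase genes and the 9 NF-κB and IκB genes none passed both thresholds. Between NO and GS, 5 of these 3, 13 and 9 genes passed the adjusted p-value alone, where 20.0% of all tested genes did. Their number stays near that share. These 5 were chosen for naming after their values were seen. Socs5 (0.98, adjusted p = 0.0239, limma) and Nfkb1 (0.86, adjusted p = 0.0064) were higher in NO, and Socs6 (-0.72, adjusted p = 0.0167), Socs7 (-0.60, adjusted p = 0.0103) and Relb (-0.66, adjusted p = 0.0239) were lower. Nfkb1 passed without any single sample. Socs5 was lost without any single GS sample, Socs6 without GS replicate 3 or NO replicate 3, Socs7 without NO replicate 3, and Relb without GS replicate 1, GS replicate 2 or NO replicate 3, with adjusted p-values from 0.0508 to 0.0973. Among the 6 tested ligand genes, Osm, which encodes oncostatin M, had 116, 116 and 102 in GS, 23, 27 and 11 in DM, and 29, 58 and 31 in NO, and dropped by 2.48 in log2 units in DM (adjusted p = 0.00203, limma) and by 1.55 in NO (adjusted p = 0.0137) relative to GS. The call of Osm in NO was lost without GS replicate 2 (adjusted p = 0.0524) or NO replicate 3 (adjusted p = 0.0529).

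Lif itself had 201, 283 and 163 in GS, 165, 199 and 193 in DM, and 353, 884 and 492 in NO. It rose in NO by 1.53 relative to DM (adjusted p = 0.00968, limma) and by 1.35 relative to GS (adjusted p = 0.0101), the latter being 0.98 (adjusted p = 0.0195) without NO replicate 2 and 1.16 (adjusted p = 0.0511) without GS replicate 3. All 3 NO values lay above those of the other media, in the samples where Il6st was lowest. Among the 5 other receptor genes, Il11ra1, the interleukin-11 receptor chain, had 38, 34 and 26 in GS, 74, 64 and 86 in DM, and 67, 74 and 78 in NO, and was higher in DM (1.17, adjusted p = 0.015) and NO (1.15, adjusted p = 0.00814) than in GS. The former call was lost without GS replicate 3 (adjusted p = 0.0694), DM replicate 1 (adjusted p = 0.0592) or DM replicate 3 (adjusted p = 0.0619). The latter was lost with quantile normalization (0.68, adjusted p = 0.0798). Without GS replicate 3 it was 1.00 (adjusted p = 0.0367), just under 2-fold. Il6ra, the interleukin-6 receptor chain, had 257, 344 and 255 in GS, 222, 226 and 222 in DM, and 325, 764 and 415 in NO. It rose between DM and NO (1.07, adjusted p = 0.0239), with 0.72 (adjusted p = 0.041) without NO replicate 2, and did not pass without any single DM sample (adjusted p = 0.0594 to 0.0689) or without NO replicate 3 (adjusted p = 0.0517).

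Stat2, Stat4, Stat5a, Stat5b and Stat6, which encode relatives of STAT3, passed the adjusted p-value in none of the 3 comparisons. Of the 10 interferon targets listed, 4 were too low to be tested and 1 passed both thresholds. This was Gbp3, with 1, 3 and 1 in GS, 0 in all DM samples, and 2, 41 and 8 in NO. Gbp3 passed the minimum through the NO samples alone, so its call between NO and DM is no support for a difference. Its values are given as a description. By the adjusted p-value alone, Irf1 was lower in NO than in DM (-0.74, adjusted p = 0.0116, limma). Irf9 was lower in NO than in GS (-0.60, adjusted p = 0.0251) and Bst2 higher in DM than in GS (0.82, adjusted p = 0.0269). Irf1 passed when any single sample was left out. Irf9 was lost without GS replicate 2 or 3, or NO replicate 2 or 3 (adjusted p = 0.0622 to 0.0991). Bst2 was lost without any single GS sample, or DM replicate 2 or 3 (adjusted p = 0.0575 to 0.113).

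The 9 other genes listed as LIF or STAT3 targets went in both directions. Tfcp2l1, a transcription factor of naive pluripotency, had 30965, 31982 and 30213 in GS, 11814, 12742 and 9340 in DM, and 16478, 10479 and 12991 in NO. It fell by 1.47 in DM (adjusted p = 0.000714, limma) and by 1.25 in NO (adjusted p = 0.0013) on the log2 scale relative to GS, as Socs3 did, with no overlap between GS and the other media. Myc, the growth regulator, had 297, 503 and 339 in GS, 1222, 1046 and 988 in DM, and 655, 472 and 751 in NO, and was higher in DM than in GS (1.54, adjusted p = 0.00154), lower in NO than in DM (-0.81, adjusted p = 0.0318) and higher in NO than in GS (0.73, adjusted p = 0.0372). The second of these calls was lost without any single DM sample or NO replicate 2 (adjusted p = 0.0566 to 0.108), and the last without GS replicate 1, GS replicate 3, DM replicate 2, NO replicate 1 or NO replicate 3 (adjusted p = 0.0563 to 0.137). Gbx2, another factor that LIF induces in mESC, had 180, 268 and 194 in GS, 266, 302 and 376 in DM, and 138, 78 and 123 in NO, and fell between DM and NO (-1.50, adjusted p = 0.00476). It was also lower in NO than in GS (-0.93, adjusted p = 0.0224), a call that was lost without GS replicate 2, GS replicate 3 or NO replicate 2 (adjusted p = 0.0549 to 0.0974). Cebpd, a factor of the acute phase response, had 7, 9 and 4 in GS, 11, 15 and 6 in DM, and 16, 50 and 29 in NO. It rose between GS and NO (2.01, adjusted p = 0.0178), but did not pass without GS replicate 3 (adjusted p = 0.0733), NO replicate 2 (adjusted p = 0.0659) or NO replicate 3 (adjusted p = 0.0559). Klf4, Klf5, Pramel7, Junb and Mcl1 passed both thresholds in none of the 3 comparisons.

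**Figure D5:**
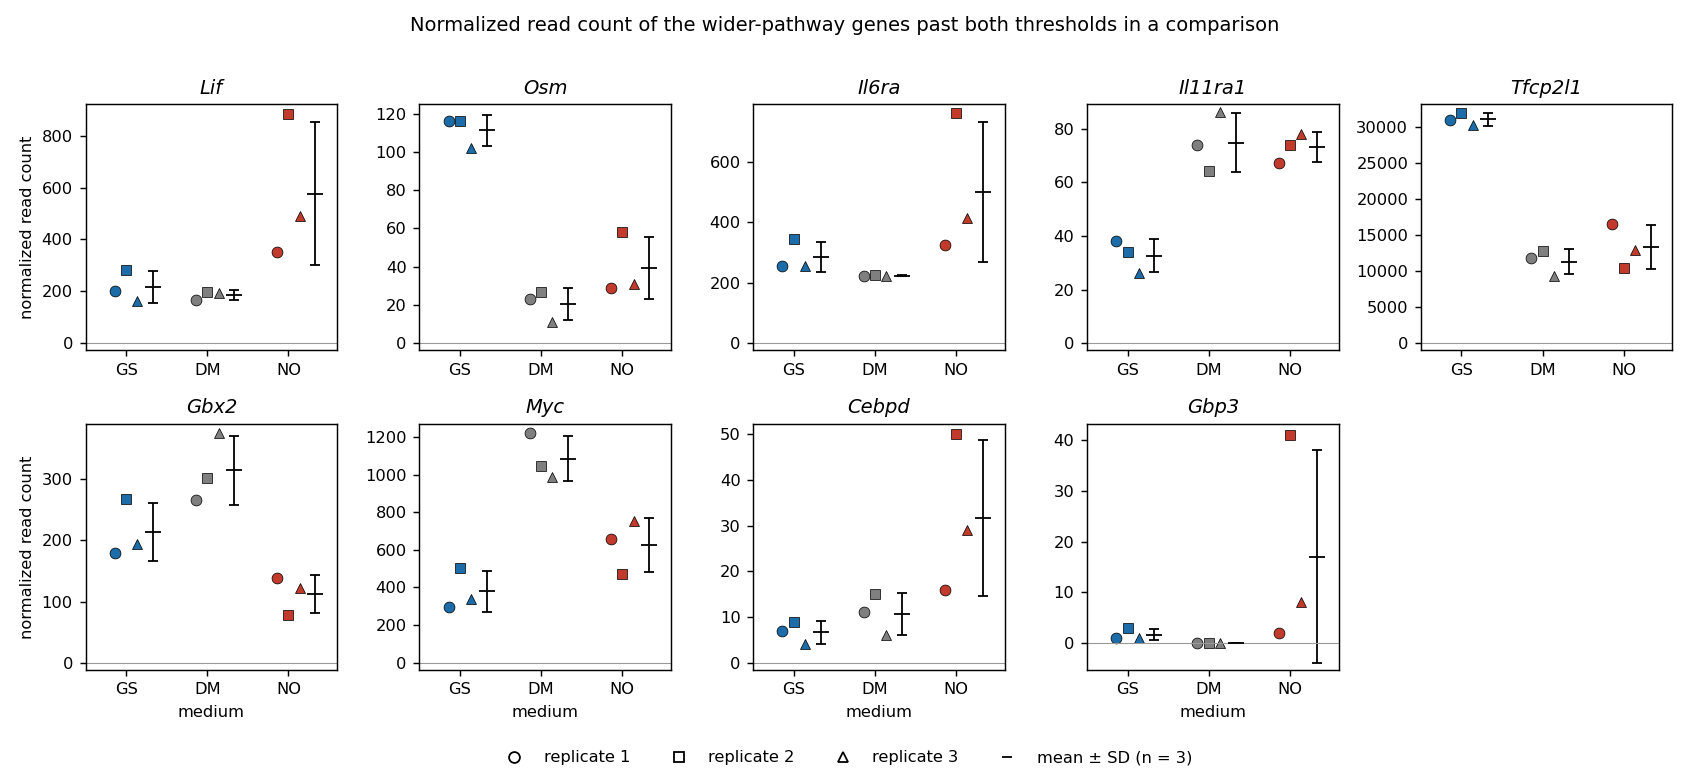
Normalized read count in the 9 samples for the wider pathway genes that passed both thresholds in at least 1 comparison, 1 panel per gene, with points for samples and bars for the mean and SD of the 3 samples of each medium. Osm and Tfcp2l1 are highest in GS, Myc in DM, and Lif in NO.

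The genes whose profiles were most like those of Socs3, Lifr and Bcl3 were found by Pearson correlation of log2(normalized count + 1) over the 9 samples, among 12400 genes with a mean of at least 50. The samples fall into 3 media, so these correlations largely describe the order of the media and carry no p-value. Socs3 was most like Cdx1 (r = 0.990), Plekhh1 (r = 0.980) and Nkx1-2 (r = 0.980). Cdx1, a homeobox gene that responds to Wnt, had 720, 660 and 517 in GS, 22, 20 and 16 in DM, and 51, 46 and 52 in NO, with the same order of media as Socs3 over a wider range. Lifr was most like Polr1b (r = 0.984), a subunit of RNA polymerase I, Slfn9 (r = 0.982) and Ubl7 (r = 0.976). Bcl3 was most like Habp4 (r = 0.994), Prdm15 (r = 0.980) and Fn1 (r = 0.974), the gene of fibronectin, each of which was lowest in NO replicate 2, as Bcl3 was.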

How the data were processed

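RNA-Seq libraries of mESC in GS, DM and NO (3 samples each) were grouped by their labels. After ribosomal depletion and Ion Torrent Proton sequencing, the authors trimmed reads with Reaper, aligned them to GRCm38 with STAR 2.4.0a and counted reads in exons with featureCounts 1.4.5-p1, leaving out reads of several genes or positions. The strand setting was not given in the sources used here, so genes with antisense overlaps are uncertain. The deposited values are a normalized score, counts that the authors divided by DESeq2 size factors and rounded, and are not raw counts.

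Log2(value + 1) of the 18156 genes with a mean above 5 was fitted by limma 3.58.1 (R 4.3.3) over all 9 samples, with 3 media and a mean-variance trend. P-values were two-sided and adjusted by Benjamini-Hochberg over all genes, and fold changes on this scale understate changes of low genes. Calls required an adjusted p-value under 0.05 with a log2 fold change of 1 or more in size. Procedures were tested on simulated data. For the fit, these data had the same spread in all media, so the wider spread of the NO samples was not covered. Members and lists were chosen with earlier results of these data known. The genes named are all members and every reported gene of the wider lists that passed the adjusted p-value, with or without the fold threshold. The 3 genes most like Socs3, Lifr and Bcl3 are also named, genes with clone or model names being skipped. Positions and exons came from GENCODE M21 and promoters from RefSeq. A planned comparison of proteins was not done here, and 1 gene of the wider lists is not reported here.

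Replicate numbers recur in each medium. The correlations of deviations from the medium means between samples of the same number were -0.18, 0.02 and -0.23 for DM and GS, -0.05, 0.05 and -0.11 for NO and GS, and 0.16, 0.17 and 0.30 for NO and DM, so that same-numbered samples deviated together in every pair only in the last comparison. The values reported come from the fit without a block, and the block was an alternative for all comparisons. The labels name no batch. Alternatives were other minimum means, pseudocounts of 0.5 and 5, a replicate block, other scalings and variance models, only the 6 samples compared, other fold thresholds and leaving out each sample. Nothing shows whether dishes were handled on separate days, so p-values measure the spread between these samples, which may be technical.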

Additional observations from a re-analysis of the deposited data

How the results depend on the processing

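Of 513 values of single members under alternatives, 476 kept their direction and their side of the adjusted p-value threshold, 24 lost and 11 gained a call, and 2 changed sign, both for Pim1 between NO and DM, at 0.0017 with scaling to equal totals and from -0.15 to 0.026 without single samples, the latter without DM replicate 3. Causes were not tested. The number of members past both thresholds between DM and GS was 2 with no minimum fold change, 0 with a minimum log2 fold change of 2, and 1 to 1 when single samples were left out. Between NO and GS it was 2, and 1 with scaling to equal totals, 1 with quantile normalization, 4 with no minimum fold change, 0 with a minimum log2 fold change of 2, and 1 to 2 without single samples, being 1 without NO replicate 2. Between NO and DM it was 0, and 2 with no minimum fold change and 0 to 2 without single samples, the 2 being Socs2 and Bcl3 without NO replicate 1. Without that sample all genes past both numbered 2512 in place of 1552. The F test over the 3 media was passed by 3 to 7 members without single samples, by 3 without GS replicate 1 or GS replicate 2 and by 7 without NO replicate 1. Of all tested genes, 2900, 2695 and 5705 passed without these samples, in the same order, against 4227 with all samples.

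Wider pathway genes past both thresholds numbered 3 to 5 between DM and GS, 2 to 10 between NO and GS and 2 to 7 between NO and DM without single samples. In these fits all genes past both numbered 509 to 962, 1455 to 2831 and 806 to 2512, so that they varied as well. The 10 and the 7 both came without NO replicate 1, as did 2831 and 2512. They include Gbp2 and Gbp3, which reached the minimum mean through the NO samples alone. With a minimum log2 fold change of 2, wider pathway genes past both were 1, 1 and 1, the last being Gbp3. With no minimum fold change they were 13 between NO and GS, where all genes numbered 3640. With only the 6 samples compared they were 2 between NO and DM, where all genes numbered 912 in place of 1552. With the replicate block, which pairs samples by number, the members past both thresholds were 1, 2 and 0, the F test was passed by 5, and no call of a member changed. Wider pathway genes past both were then 4, 5 and 5, where all genes numbered 674, 2085 and 1553. The gain between NO and DM was Gbp2, with 0 in all DM samples and 1, 31 and 12 in NO. Gbp2 reached the minimum mean through the NO samples alone, so its call is no support for a difference. Scaling to equal totals moved the median log2 fold change of all genes between NO and GS from -0.02 to 0.09. Socs1 alone among the members fell below the minimum mean. Whether depth limited the calls of other members was not tested.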
